A study of Homo sapiens with 4 samples.

Results

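The arrestin genes described here are ARRB1 and ARRB2, which code for the beta-arrestins, and ARRDC1, ARRDC2, ARRDC3 and ARRDC4, which code for alpha-arrestins. They were picked by gene symbol, without use of their levels but with earlier results of these data known. All 6 were found among the 2864 genes with values in the deposited table. RNA of A375, a human melanoma cell line driven by mutant BRAF, was sequenced in 4 conditions with 1 library each. A375P is the untreated parental culture. A375R is the strain made resistant by raising the concentration of vemurafenib, an inhibitor of the BRAF kinase, and kept under the drug. A375+DMSO was grown for 48 h with the solvent at 1 per mille, and A375+VEM for 48 h with 2 μM vemurafenib. All 4 carry the label wild type, and the sources used here do not say whether A375R is 1 clone. With 1 library per condition there was no replicate error and no test between conditions, so the intervals below cover the counting of reads only and compare libraries.

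Beta-arrestins bind activated G protein-coupled receptors at the cell membrane, stop their coupling to G proteins and hand them to clathrin and its adaptor AP-2 for uptake into the cell. They also hold kinases such as RAF and AKT near the receptor. Alpha-arrestins share the arrestin fold but carry short proline and tyrosine motifs that recruit ubiquitin ligases of the NEDD4 family, so that they direct membrane proteins, among them receptors and nutrient transporters, to ubiquitination and turnover.

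The table covers gene names up to those starting with CAC. Over these genes the libraries held 1891215 to 2054277 reads, a part of the depth only, and 8.48 to 8.94% of the TPM. TPM is the read count per gene length, scaled to the same total in every library. A375P and A375+VEM held most of the extreme levels. Over the 1700 genes whose mean TPM reached 1, A375P was the lowest of the 4 by over 1.5-fold for 276 and the highest for 130, and A375+VEM was the lowest for 236 and the highest for 295. A375R was the lowest for 44 and the highest for 64, and A375+DMSO for 29 and 23. Ratios are given against both libraries without the drug. Of 6 markers of melanoma lines in the table, 5 reached a TPM of 1, AXL among them at a TPM of 92.4 to 659. None of 6 immune, 3 secretory epithelial and 1 fat marker did, and 1 of 3 muscle markers did. All 5 liver markers reached it, with a summed TPM of 66.4 to 90.8 that was highest in A375P and with ALB at a TPM of 46.4 to 64.5, and their part in the results was not tested. In such bulk RNA, fewer cells with a transcript and less of it per cell cannot be told apart.

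ARRB1, which codes for beta-arrestin 1, spans 74971166 to 75062875 of chromosome 11, minus strand, in the coordinates of the table, for which the submitters' processing notes name hg19. Its reads numbered 193 in A375P and 634 in A375R, and 516 with DMSO and 666 with VEM. Per gene length these are a TPM of 2.99, 10.9, 8.58 and 11.1 in the same order. A375P was far below the other libraries, and A375R and A375+VEM were level with each other, at a ratio of A375+VEM to A375R of 1.02 with a 95% interval from 0.917 to 1.14. A375R was at 3.64 times A375P (95% interval 3.09 to 4.29) and A375+DMSO at 2.87 times (2.42 to 3.40), while A375+VEM was at 1.30 times A375+DMSO (1.16 to 1.46). A375R lay much closer to A375+DMSO than to A375P, at a ratio of 1.27 (1.13 to 1.43).

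ARRB2, which codes for beta-arrestin 2, spans 4613789 to 4624795 of chromosome 17, plus strand. Its reads came to 452 in A375P and 761 in A375R, and to 800 with DMSO and 723 with VEM. Its TPM was 26.1 in A375P and 48.7 in A375R, and 49.6 with DMSO and 45.1 with VEM. Again A375P alone was low, and the other 3 libraries were close together. A375R was at 1.86 times A375P (95% interval 1.66 to 2.10), whereas against A375+DMSO it was 0.983 (0.889 to 1.09). In the acute pair A375+VEM was at 0.910 of A375+DMSO (0.822 to 1.01), an interval that held 1. This depends on the scaling, since under 3 other scalings between libraries, named below, the log2 ratio went from -0.14 to between -0.24 and -0.28, within 1.5-fold. Per length ARRB2 was the more abundant beta-arrestin in every library. The ratio of the TPM of ARRB2 to that of ARRB1 was 8.73 in A375P (95% interval 7.36 to 10.4), 5.78 in A375+DMSO (5.17 to 6.47), 4.47 in A375R (4.02 to 4.98) and 4.05 in A375+VEM (3.64 to 4.50). ARRB1 therefore made up 10.3% of the beta-arrestin TPM in A375P and 19.8% in A375+VEM.

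**Figure D1:**
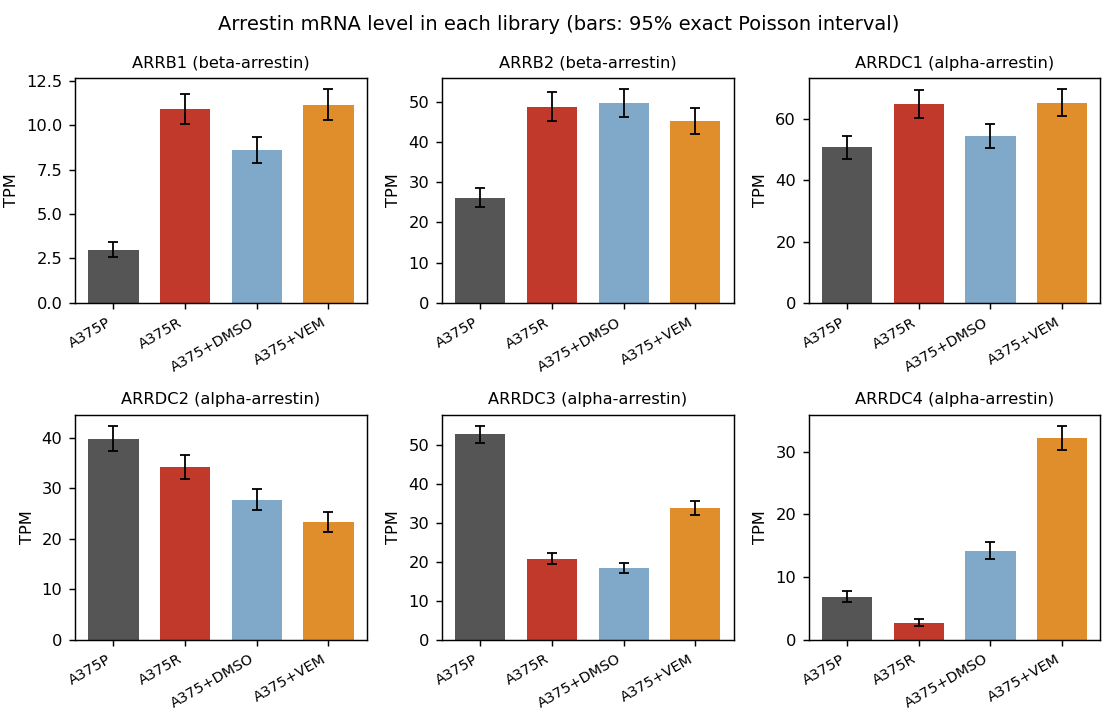
TPM of the 6 arrestin genes in the 4 libraries, 1 panel per gene and 1 bar per library. The error bars are 95% exact Poisson intervals on the reads, which cover counting error only. ARRB1 and ARRB2 are lowest in A375P, ARRDC3 is highest there, and ARRDC4 runs from a TPM of 2.67 in A375R to 32.1 in A375+VEM.

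ARRDC1 codes for an alpha-arrestin at the plasma membrane that is known for driving the release of small vesicles. It spans 140500092 to 140509812 of chromosome 9, plus strand. Its reads came to 728 in A375P and 840 in A375R, and to 728 with DMSO and 868 with VEM, which is a TPM of 50.7, 64.8, 54.4 and 65.3. It was the steadiest of the 6, with a log2 range of 0.36 over the 4 libraries on the scale of log2(TPM + 0.1), and 7.88% of the 1700 genes had a smaller range. Both libraries with the drug were above both without it, as they were for 13.0% of the 1700 genes. The ratio was 1.28 for A375R to A375P (95% interval 1.16 to 1.41) and 1.20 for A375+VEM to A375+DMSO (1.09 to 1.33). Neither ratio reached 1.5-fold.

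ARRDC2, a less studied alpha-arrestin, spans 18111941 to 18124911 of chromosome 19, plus strand. Its reads numbered 1007 in A375P and 779 in A375R, and 654 with DMSO and 544 with VEM. The TPM was 39.9 in A375P and 34.2 in A375R, and 27.8 with DMSO and 23.3 with VEM. Each step of this order was larger than counting error, the smallest of them between A375P and A375R at 1.17 (95% interval 1.06 to 1.28). Within the pairs of the study the ratios were small, at 0.856 for A375R to A375P (0.779 to 0.941) and 0.838 for A375+VEM to A375+DMSO (0.746 to 0.940).

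ARRDC3, an alpha-arrestin known for acting on the turnover of membrane receptors, spans 90664449 to 90679190 of chromosome 5, minus strand. Its reads came to 2342 in A375P and 831 in A375R, and to 760 with DMSO and 1386 with VEM. Its TPM was 52.7 in A375P and 20.7 in A375R, and 18.3 with DMSO and 33.7 with VEM. A375P was thus the highest library and A375+VEM the second, with A375R and A375+DMSO well below. A375R was at 0.393 of A375P (95% interval 0.362 to 0.425), and A375+DMSO was lower still at 0.348 of it (0.320 to 0.378). Against A375+DMSO, A375R was at 1.13 (1.02 to 1.25). In the acute pair the direction was the opposite of that in the resistant pair, with A375+VEM at 1.84 times A375+DMSO (1.68 to 2.01). Against A375P, A375+VEM was nevertheless at 0.639 (0.597 to 0.683).

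ARRDC4, an alpha-arrestin known as a relative of the thioredoxin-interacting protein and for acting on glucose uptake, spans 98503933 to 98517068 of chromosome 15, plus strand. Its reads came to 237 in A375P and 84 in A375R, and to 461 with DMSO and 1038 with VEM. The TPM was 6.80 in A375P and 2.67 in A375R, and 14.2 with DMSO and 32.1 with VEM. No libraries were level with each other, and A375R and A375+VEM held the ends of the range. On the scale of log2(TPM + 0.1) that range was 3.54, and 94.4% of the 1700 genes had a smaller one, where the median over these genes was 1.10. A375R was at 0.392 of A375P (95% interval 0.302 to 0.505) and at 0.188 of A375+DMSO (0.147 to 0.238). A375+VEM was at 2.27 times A375+DMSO (2.03 to 2.54) and at 4.73 times A375P (4.10 to 5.47). ARRDC4 was therefore the 1 arrestin gene for which A375R lay below, and A375+VEM above, either library without the drug by more than 1.5-fold. Taken apart, A375R was the lowest library by over 1.5-fold for 2.59% of the 1700 genes, and A375+VEM the highest for 17.4%. The share of genes with both was not counted. A375+DMSO was itself at 2.08 of A375P (1.78 to 2.45).

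**Figure D2:**
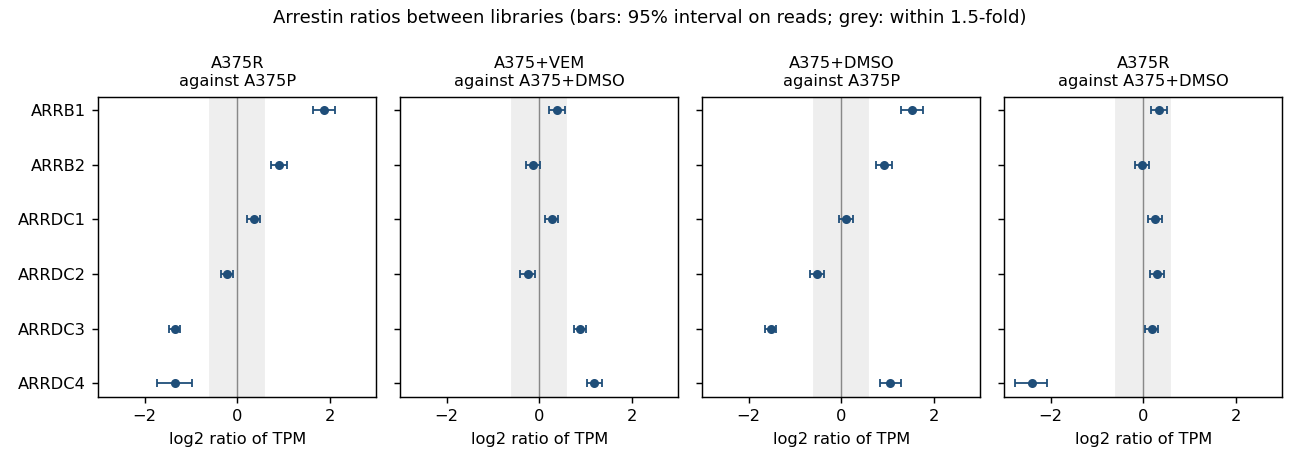
Log2 ratio of TPM between libraries for the 6 arrestin genes, 1 panel per comparison. Points are the ratios, bars are 95% exact intervals on the reads, and the grey band is within 1.5-fold. ARRB1, ARRB2 and ARRDC3 lie outside the band in A375R against A375P and inside it in A375R against A375+DMSO, where ARRDC4 alone is outside.

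The upstream sequences of ARRDC4 and ARRDC3 are shown because the ratios of these genes went in opposite directions in the pairs of the study. They are from RefSeq on GRCh38.p14, which is not the build of the table, and 5 of the 6 genes had an entry, all except ARRB1. ARRDC4 is shown from base -250 to base -6 before its start, at chr15:97960453-97960697 on the plus strand. ARRDC3 has 2 starts, and both are given on the minus strand, the first at chr5:91383360-91383567 and the second at chr5:91380152-91380347. Each stops where GENCODE annotates an exon. Capitals mark matches on either strand to 1 of 5 motifs, none of which overlapped another here. The motifs were an E-box with the letters CACGTG, an AP-1 site with TGANTCA, a forkhead site with TGTTTAC, the CCAAT box with its own letters, and a cAMP response element with TGACGTCA.
ARRDC4: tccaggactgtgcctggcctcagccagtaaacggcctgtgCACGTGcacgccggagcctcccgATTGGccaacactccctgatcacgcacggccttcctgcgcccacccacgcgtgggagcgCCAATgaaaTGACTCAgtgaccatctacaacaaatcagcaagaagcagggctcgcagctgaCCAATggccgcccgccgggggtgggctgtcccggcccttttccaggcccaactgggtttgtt
ARRDC3, first start: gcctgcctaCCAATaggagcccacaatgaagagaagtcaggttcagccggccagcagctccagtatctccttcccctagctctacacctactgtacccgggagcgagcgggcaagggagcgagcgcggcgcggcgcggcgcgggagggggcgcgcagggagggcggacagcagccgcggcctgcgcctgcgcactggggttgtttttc
ARRDC3, second start: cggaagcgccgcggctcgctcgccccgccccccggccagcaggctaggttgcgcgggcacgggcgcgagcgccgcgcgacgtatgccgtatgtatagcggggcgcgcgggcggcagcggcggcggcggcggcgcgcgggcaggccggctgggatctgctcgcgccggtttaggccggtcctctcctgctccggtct

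Within 250 bases before the start ARRDC4 held 5 matches, namely 1 E-box at -210, 1 AP-1 site at -119 and 3 CCAAT boxes at -187, -128 and -67. An E-box was present in 6.32% of 34943 such windows, an AP-1 site in 6.59% and a CCAAT box in 32.0%. ARRDC3 had a CCAAT box at -241 of the first start and a forkhead site at -29 of the second, beyond the stretch shown, and a forkhead site was present in 2.98% of windows. The other windows held 1 match each, a CCAAT box in ARRB2, in ARRDC1 and at 1 of the 2 starts of ARRDC2, and an AP-1 site at the other. No member held a cAMP response element, which 1.63% of windows had. These are matches of letters and no measure of binding. The ARRDC4 window had a GC content of 62.8% and the others of 65.6 to 82.0%, against a median of 58.0% over all windows. The motifs were chosen after these sequences had been seen.

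Compared as a family, with a threshold of 1.5-fold on (TPM + 0.1), 4 of the 6 genes were past it in A375R against A375P. ARRB1 and ARRB2 were higher, and ARRDC3 and ARRDC4 lower. Over all 1689 genes compared, 44.3% were past the threshold, 26.8% higher and 17.5% lower. In A375+VEM against A375+DMSO, ARRDC3 and ARRDC4 were higher and none was lower. Of 1784 genes there, 26.5% were higher, 19.7% lower and 46.2% past the threshold in either direction. That is 473 higher and 352 lower, a split that became 380 and 431 with TMM factors, a scaling between libraries. Between the libraries without the drug, A375+DMSO and A375P, again 4 were past it, namely ARRB1, ARRB2 and ARRDC4 higher and ARRDC3 lower, where 45.7% of 1720 genes were past it, 26.8% higher and 18.9% lower. In A375R against A375+DMSO only ARRDC4 was past it, downward, where 20.5% of 1702 genes were past it, 10.5% higher and 9.99% lower. In A375+VEM against A375P it was 5, all but ARRDC1, with ARRB1, ARRB2 and ARRDC4 higher and ARRDC2 and ARRDC3 lower. Of 1782 genes there, 62.1% were past it, 36.9% higher and 25.3% lower, or 657 and 450 genes, which became 539 and 578 with TMM factors. A375+VEM and A375P thus differed in more of the genes at hand than any other pair of libraries compared.

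The median log2 ratio of the 6 genes was 0.06 in A375R against A375P and 0.32 in A375+VEM against A375+DMSO, beside medians over all genes compared of 0.10 and 0.11. ARRDC3 and ARRDC4 were both lower by over 1.5-fold in the resistant pair and higher by over 1.5-fold in the acute pair, at log2 ratios of -1.34 and -1.32 in the former and 0.87 and 1.18 in the latter. This held for 88 of 1656 genes compared in both pairs, or 5.31%. The pairs share no library. In A375R against A375P, 3.91% of the genes compared had a lower log2 ratio than ARRDC3 and 4.14% a lower one than ARRDC4, while 94.8% were below ARRB1. ARRB1 and ARRDC1 had a higher TPM in both libraries with the drug than in both without it, as did 13.0% of 1700 genes. No arrestin gene had the reverse order, which 7.29% of genes had.

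**Figure D3:**
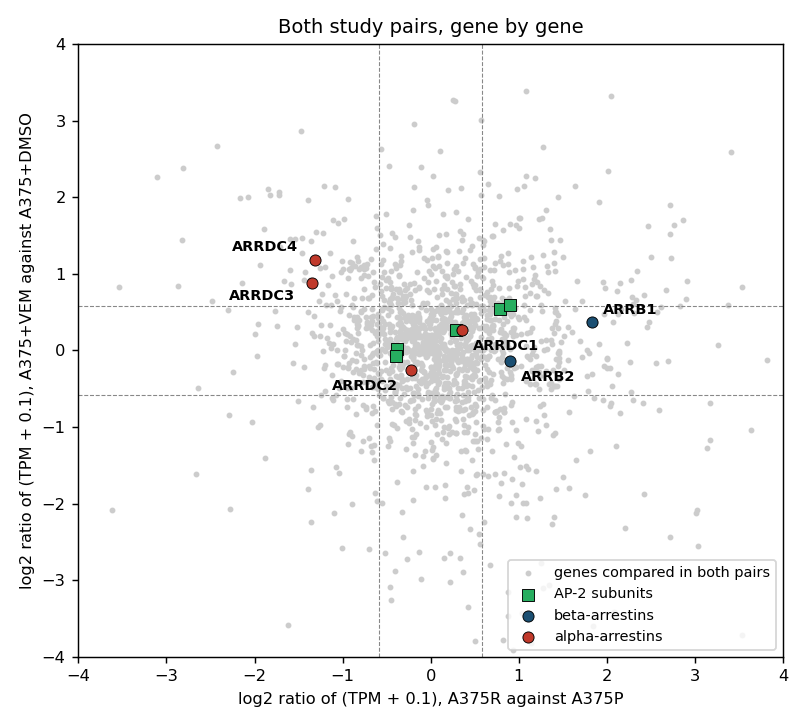
Log2 ratio of (TPM + 0.1) in A375R against A375P on the horizontal axis and in A375+VEM against A375+DMSO on the vertical axis. Each grey point is 1 of 1636 genes compared in both pairs, with 20 more outside the axes, and dashed lines mark 1.5-fold. ARRDC3 and ARRDC4 lie at the upper left, ARRB1 and ARRB2 at the right between the horizontal lines, and ARRDC1 and ARRDC2 within 1.5-fold on both axes.

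The summed TPM of the 6 genes was 179 in A375P and 182 in A375R, and 173 with DMSO and 211 with VEM. Its make-up varied more than its size. Beta-arrestins were 16.2% of it in A375P and 32.8% in A375R, and 33.7% with DMSO and 26.7% with VEM. The TPM of alpha-arrestins was 5.15 times that of beta-arrestins in A375P and 2.05 in A375R, and 1.97 with DMSO and 2.74 with VEM. ARRDC3 led in A375P with 29.4% of the sum, just above ARRDC1 with 28.3%. ARRDC1 led in the other libraries with 31.0 to 35.6%. ARRDC4 was 1.47% of the sum in A375R and 15.3% in A375+VEM.

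**Figure D4:**
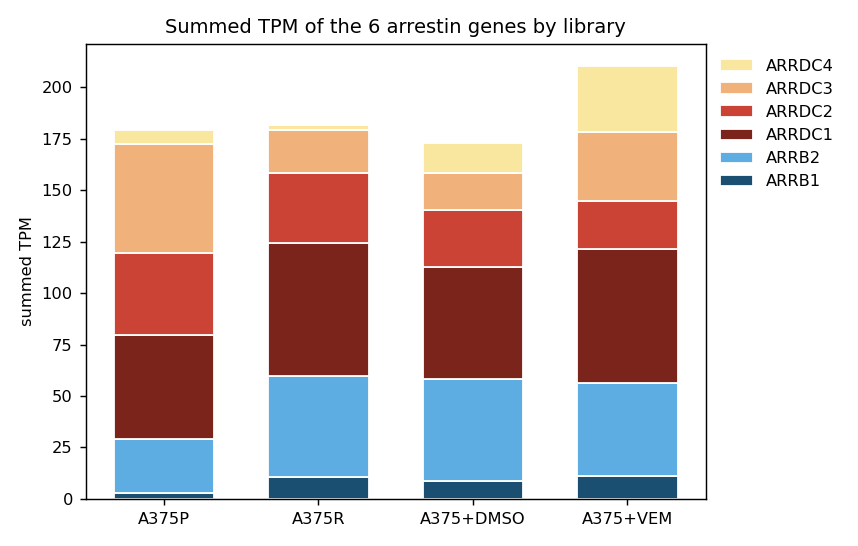
Summed TPM of the 6 arrestin genes, 1 stacked bar per library, with beta-arrestins in blue at the base and alpha-arrestins in red to yellow above. The beta-arrestin part is smallest in A375P, at a TPM of 29.1 against 56.3 to 59.6 in the other libraries, and the ARRDC4 part is largest in A375+VEM.

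Reads of the 6 genes could be told apart from each other, since no stretch of 50 bases in their GENCODE transcripts occurred in the transcripts of another of the 6. Of the 50-base stretches of ARRB1, 0.592% also occurred in other genes on the same strand, and of ARRDC1 2.08%. On the opposite strand the shares were 7.94% for ARRDC2, all with 1 other gene, 2.62% for ARRB1 and 1.97% for ARRDC3, while ARRB2 had 1 such stretch and ARRDC1 and ARRDC4 had none. By gene position in the table, introns included, ARRDC1 overlaps ARRDC1-AS1, an antisense lncRNA, by 29 bases. On the same measure ARRDC3 overlaps ARRDC3-AS1 by 3027 bases. In transcripts less was shared, since the 1.97% for ARRDC3 above were 98 stretches, all with ARRDC3-AS1. Whether reads were counted by strand is not given in the sources used here, so reads from bases shared across strands cannot be told apart. ARRDC1-AS1 had 394 reads in A375P and 386 in A375R, and 511 with DMSO and 765 with VEM. It was at 1.51 times its A375+DMSO level in A375+VEM (95% interval 1.35 to 1.69), where ARRDC1 was at 1.20. ARRDC3-AS1 had 12 to 33 reads per library beside 760 to 2342 of ARRDC3. Of the 5 comparisons its interval left out 1 only in A375R against A375+DMSO, at a ratio of 0.376 (0.177 to 0.746).

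Of the other arrestin genes in the table, ARR3, the arrestin of cone photoreceptors, had 9 reads in A375P and 16 in A375R, and 15 with DMSO and 49 with VEM. Its level in A375+VEM was 3.29 times that in A375+DMSO (95% interval 1.81 to 6.32), while A375R was at 1.97 times A375P with an interval from 0.819 to 5.05, so that no difference was detectable there at this depth. ARRDC5 had at most 3 reads in a library.

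Among the partners of arrestins, the 5 subunits of AP-2 were all compared. AP-2 is the adaptor that joins cargo and beta-arrestins to clathrin. In A375R against A375P, 2 of the 5 were higher by over 1.5-fold and none was lower, namely the alpha subunits AP2A1 at a ratio of 1.72 and AP2A2 at 1.86, where 26.8% of all genes compared were higher and 17.5% lower. Both were also past the threshold in A375+DMSO against A375P, at 1.97 and 2.04. AP2M1 was at 1.51 there, and its log2 ratio of 0.59 went inside the threshold under each of the 3 other scalings between libraries, at 0.50 to 0.52. In A375+VEM against A375+DMSO, AP2A2 was at 1.51 and AP2A1 at 1.46. The log2 ratio of AP2A2 there, 0.59, likewise went inside the threshold under each of these scalings, at 0.44 to 0.48. AP2B1, the subunit that beta-arrestins bind, had 8700 reads in A375P and 6011 in A375R, and 7525 with DMSO and 7588 with VEM, and stayed within 1.5-fold in all 5 comparisons, as did AP2S1. Of 5 other genes of clathrin-dependent uptake, 4 could be compared, and in A375R against A375P 1 was higher and none lower. This was BIN1, a membrane-curving protein, with 28 reads in A375P and 116 to 133 in the other libraries. The other 3 were below A375P in A375+DMSO. The small GTPase ARF6 was at a ratio of 0.620 and the kinases BMP2K and AAK1 were at 0.562 and 0.675. AAK1 was within 1.5-fold there, at a log2 ratio of -0.56, but past it under each of the 3 other scalings, at -0.64 to -0.66. In A375+VEM against A375+DMSO none of the 4 was past the threshold, where 46.2% of all genes compared were. ARF6, at a log2 ratio of -0.50 in that pair, went past it under each of these scalings, at -0.61 to -0.65. Of the kinases held by beta-arrestins, ARAF, BRAF and AKT1 were within 1.5-fold in both pairs of the study. BRAF was also within it in A375+VEM against A375P, at a log2 ratio of -0.52. Under each of the 3 other scalings BRAF was past 1.5-fold there, at -0.66 to -0.75. AKT1 was past it in A375+DMSO and in A375+VEM against A375P, at 1.62 and 1.73, the latter inside it with TMM factors at a log2 ratio of 0.56.

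Of 9 adrenergic receptor genes, which include classical cargo of arrestins, 4 could be compared in A375R against A375P and 3 in A375+VEM against A375+DMSO. ADRB1 was lower by over 1.5-fold in the latter, with 40 reads in A375+DMSO and 7 in A375+VEM. This depends on the control, since ADRB1 had 9 reads in A375P. Against A375P, A375+VEM was at 0.839 (interval 0.266 to 2.53), which held 1. In A375R against A375P, ADRA1D and ADRB1 were past 1.5-fold upward, each with 25 reads in A375R. With 1 added to the TPM, ADRA1D was inside the threshold, at a log2 ratio of 0.54. ADRA1B was lower, with 127 reads in A375P and 28 in A375R. Of all genes compared, 26.8% were higher and 17.5% lower. Against A375+DMSO, where ADRA1B had 35 reads, A375R was at 0.826 for this gene (interval 0.484 to 1.40). ADRB1 went the other way there, at 0.646 (0.375 to 1.09), and both intervals held 1. ADRA1D remained higher, at 2.15 (1.04 to 4.70), but with 1 added to the TPM its log2 ratio was 0.50.

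Of 17 other G protein-coupled receptor genes with names in this part of the alphabet, 6 could be compared in A375R against A375P, and 2 of these were higher and 2 lower by over 1.5-fold, beside 26.8% and 17.5% of all genes compared. AGTR1, the angiotensin II receptor and a classical partner of beta-arrestins, had 15 reads in A375P and 114 in A375R, and 24 with DMSO and 39 with VEM. A375R stood above the others, at a ratio to A375P of 8.41 (95% interval 4.89 to 15.5) and to A375+DMSO of 4.91. In A375+VEM against A375+DMSO, 7 could be compared, and 4 were higher and none lower, beside 26.5% and 19.7% of all genes. AGTR1 was 1 of the 4, at a log2 ratio of 0.67, and went inside the threshold under each of the 3 other scalings, at 0.52 to 0.57. ADORA2A, an adenosine receptor, had 83 reads in A375P and 31 in A375R, and 20 with DMSO and 96 with VEM. AVPR2, the vasopressin receptor of the kidney, had 105, 35, 38 and 152 reads in the same order. Both were high in A375P and A375+VEM and low in the other libraries, as ARRDC3 was. C3AR1, a complement receptor, had 88 reads in A375+VEM and 12 to 17 in the other libraries. The 4 atypical chemokine receptors had at most 24 reads in a library. Of these, 2 could be compared in A375+VEM against A375+DMSO, with ACKR1 higher at 3.31 (95% interval 1.37 to 9.13) and ACKR4 lower at 0.336 (0.130 to 0.772). Against A375P, ACKR1 in A375+VEM was at 8.27 (2.50 to 43.0). ACKR4 was at 0.719 there (0.255 to 1.91), an interval that held 1. The G protein-coupled receptor kinases were not analysed here.

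Likeness of pattern was measured as the largest difference, over the 4 libraries, between log2(TPM + 0.1) of 2 genes after each was centred on its own mean, among 1566 other protein-coding genes whose mean TPM reached 1. The nearest to ARRB1 were ADGRE1, ANKRD39 and BTN3A1, at 0.16 to 0.19, where ANKRD39 had 48 reads in A375P. Nearest to ARRB2 were ATRX, ACLY and ANO10 at 0.07 to 0.10, and nearest to ARRDC1 were C6orf136, BBX and C20orf194 at 0.02 to 0.07. ADH1B, ACTR3 and ACBD5 were nearest to ARRDC2, at 0.06 to 0.07. ADH1B had 25 to 50 reads per library, so its place in this order is uncertain. Nearest to ARRDC3 were C12orf49, ATP6V0B and ATP6V1E1, at 0.10 to 0.12. ARRDC4 had no near gene in this sense, its nearest being C21orf140, AK8 and ANKK1 at 0.36 to 0.52, each with 60 reads or fewer per library. Among the 6 genes themselves, ARRB2 and ARRDC1 were closest at 0.45, and the beta-arrestins differed from each other by 0.64. ARRDC3 was nearer to ARRDC2, at 0.63, than to ARRDC4.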

How the data were processed

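The authors deposited 1 table for the 4 libraries, 1 per condition, holding for each gene a raw read count, a TPM, a length and a position. The deposited counts are whole numbers without normalization, and the authors' TPM is the count per gene length scaled over the whole library. The submitters' processing notes name hg19, HISAT2, HISAT, TopHat2 and Bowtie2, while the counting program is not given in the sources used here. Its rows end at gene names starting with CAC, with 2864 genes used and 1 incomplete row left out. The members, gene lists and comparisons were chosen with earlier results of these data known. Genes reaching a TPM of 1 in either library of a comparison were compared by the ratio of (TPM + 0.1), with 1.5-fold as the threshold. Ratios not given as log2 are of TPM without the 0.1. The 95% intervals of ratios were computed by the exact Clopper-Pearson method from both libraries' reads. Reads without molecular identifiers are not independent molecules, so intervals cover counting error only. The log2 scale with 0.1 added understates changes of low genes.

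All 6 members are described, with up to 5 genes of each list by the largest log2 ratio in a study pair (among genes reaching a TPM of 1) and the 3 genes nearest in pattern to each member. Other arrestin genes in the table are given too, and 1 gene of the lists is not reported here. The ratio step was tested on simulated data. Alternatives were pseudocounts of 1 and 0.01, no filter, a minimum TPM of 5, a median ratio set to 1, TMM factors from edgeR, size factors from DESeq2 (both over the genes at hand) and a threshold of 2-fold. R 4.3.3 was used with edgeR 4.0.16 and DESeq2 1.42.0, and Python 3.11.15 with pandas 2.3.3, scipy 1.17.1, numpy 2.4.6 and matplotlib 3.10.9.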

Additional observations from a re-analysis of the deposited data

Results flagged for a closer look

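ARRDC3 and ARRDC4 were lower in the resistant pair and higher in the acute pair, by over 1.5-fold each time. With 1 library per condition this contrast was not tested. The log2 ratio in A375+VEM against A375+DMSO minus that in A375R against A375P was 2.22 for ARRDC3 and 2.49 for ARRDC4. For ARRDC3 the contrast depends on the control, with a log2 ratio of 0.17 in A375R against A375+DMSO and of -0.65 in A375+VEM against A375P. For ARRDC4 it held with the controls exchanged, at -2.37 and 2.22.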

How the results depend on the processing

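No paired analysis was possible because each condition has 1 library, and no library could be left out. The number of arrestin genes past the threshold stayed within 1.5 times its value in 38 of 40 alternatives. At a threshold of 2-fold it was 1 in A375+VEM against A375+DMSO (ARRDC4), where 26.4% of all genes compared were past that threshold. In A375+VEM against A375P it was 2, where 42.0% of all genes compared were. Scaling to a median ratio of 1, TMM factors and DESeq2 size factors shifted the median log2 ratio of all genes by -0.10 to -0.15 in A375+VEM against A375+DMSO and by -0.14 to -0.22 in A375+VEM against A375P. No log2 ratio of an arrestin gene past 1.5-fold changed sign. With TMM factors ARRB2 in A375+VEM against A375P went to 0.56, inside the threshold, and with each of the 3 scalings ARRDC2 joined the genes past it in A375+DMSO against A375P. The same scalings and pseudocounts were added for the named genes of the lists after the data had been seen, and no ratio past 1.5-fold changed sign. Over all genes, a threshold of 2-fold left 22.2% of those compared in A375R against A375P (248 higher and 127 lower), 26.4% in the acute pair (471 genes), 26.0% in A375+DMSO against A375P (447 genes) and 8.64% in A375R against A375+DMSO (147 genes). Without a filter on low values the shares were within 1.5 times, but the counts went from 748, 825, 786 and 349 to 1237, 1282, 1266 and 818 in the same order. A minimum TPM of 5 gave 207 genes in place of 349 in A375R against A375+DMSO. With TMM factors the split of higher and lower genes in the acute pair went from 473 and 352 to 380 and 431, and in A375+VEM against A375P from 657 and 450 to 539 and 578.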
